A study of Homo sapiens with 2 samples.

Results

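SAP30 and its partners in the SIN3 histone deacetylase complex were followed in 2 poly(A) RNA libraries of THP-1, a line of human monocytic leukaemia cells in which KMT2A is fused to another gene. The members were the 10 genes SAP30, SAP30L, SAP130, SIN3A, SIN3B, HDAC1, HDAC2, SUDS3, RBBP4 and RBBP7, found by gene name among 30856 rows of the deposited gene table, and all 10 were present and expressed. The set was chosen by the measured FPKM of SAP30, known to be low in resistant cells, so the ratio of SAP30 and any count that rests on it describe how it was chosen. The first library came from Ara-C resistant cells, grown in steps of cytarabine (Ara-C, a drug that acts as a false nucleoside) between 5 nM and 10 µM, until they doubled as fast as untreated cells. The second came from untreated parental cells. Resistant cells were 1 line and each group had 1 library, so no difference below has a replicate check or a test.

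The SIN3 complex is a corepressor: DNA-binding proteins bring it to promoters, where it removes acetyl groups from histone tails and lowers transcription. SIN3A and SIN3B are alternative scaffolds, HDAC1 and HDAC2 carry the enzymatic activity, and RBBP4 and RBBP7 bind histones. SAP30, its paralogue SAP30L, SAP130 and SUDS3 are associated subunits that help to hold the enzyme on the scaffold or link it to other proteins. The deacetylases and the RBBP proteins also serve in other complexes, such as NuRD, whereas SAP30 is regarded as a subunit typical of SIN3.

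SAP30 lies on chromosome 4, from 173369969 to 173377532 on the plus strand (GRCh38, coordinates of the deposited table). In GENCODE 29, where the gene has the same bounds, a coding transcript of 4 exons starts at 173370943 and a noncoding transcript starts at 173369969. The 250 bases upstream of the start of SAP30 and of SAP30L are shown because the pairs at these genes differed. SAP30 and the divergent RNA beside it were both at least 6-fold lower by counts in resistant cells. The pair at SAP30L, also head to head, lay at 0.752-fold for SAP30L and 1.01-fold for its antisense RNA. In the deposited coordinates SAP30 and its divergent RNA overlap by 753 bases, whereas the antisense RNA of SAP30L ends at 154445850, before SAP30L begins at 154445997. Sequences are from RefSeq (GRCh38.p14), plus strand, 5′ to 3′, with CG dinucleotides in capitals.
SAP30, chr4:173370704-173370953: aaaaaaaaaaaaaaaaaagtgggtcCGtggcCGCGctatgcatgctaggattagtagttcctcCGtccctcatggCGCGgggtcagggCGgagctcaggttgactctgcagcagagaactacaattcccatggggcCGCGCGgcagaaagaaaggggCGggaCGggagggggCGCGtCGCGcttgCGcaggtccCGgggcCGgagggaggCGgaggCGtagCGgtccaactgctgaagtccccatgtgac
SAP30L, chr5:154445747-154445996: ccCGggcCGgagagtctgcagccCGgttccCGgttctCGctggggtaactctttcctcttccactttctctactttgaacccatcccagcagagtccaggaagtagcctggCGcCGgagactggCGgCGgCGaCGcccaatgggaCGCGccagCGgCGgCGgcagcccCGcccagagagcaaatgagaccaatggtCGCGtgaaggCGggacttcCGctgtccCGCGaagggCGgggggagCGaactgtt
The SAP30 window held 22 CG dinucleotides and the SAP30L window held 25. The motif searched was CG, which reads the same on both strands, and the median over 35116 promoter windows of this length was 11. Windows with at least 22 made up 28.0% of all windows, and windows with at least 25 made up 21.6%. In RefSeq, a start of the divergent noncoding RNA SAP30-DT lies 256 bases from that of SAP30, on the other strand. SAP30L-AS1 starts 175 bases from SAP30L in the same head-to-head arrangement.

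The resistant library held 58285463 counts and the parental library 57434972. Levels are given as FPKM (fragments per kilobase of transcript, scaled to library size). Folds are counts relative to the library total, resistant over parental, with an exact 95% interval that covers counting error only. Log2 ratios were computed on FPKM + 1, which understates differences of low genes, and genes were called at a rule of size of 2-fold on that scale. Of 10 leukocyte and monocytic markers, 9 reached 1 FPKM, among them PTPRC (15.4 FPKM in resistant cells and 14.3 in parental cells), SPI1 (62.3 and 64.4) and CD68 (29.2 and 31.6). CD14 was at 0.03 and 0.50 FPKM, LYZ at 95.8 and 225, MPO at 0.94 and 2.81, and CSF1R at 7.74 and 12.2, while FCGR1A was higher in resistant cells, at 41.2 and 29.6. The summed level of the marker list was 266 FPKM in resistant cells and 395 in parental cells, and without LYZ it was 171 and 170.3. Of 14 markers of T, B, erythroid, epithelial and stromal cells, 7 were in the table and 0 reached 1 FPKM, with sums of 0.53 and 0.54 FPKM. The part of these marker differences in the results below was not tested. In bulk RNA, fewer cells that express a gene and less RNA per cell cannot be told apart.

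SAP30 was the only one of the 10 genes at least 2-fold apart between the libraries. It was at 1.02 FPKM in resistant cells and 10.5 FPKM in parental cells, with 91 and 916 counts. By counts this was 10.2-fold lower in resistant cells (8.23 to 12.8), and the log2 ratio was -2.51. SAP30 ranked 4 from the lowest log2 ratio among 6722 genes with at least 5 FPKM in the higher library. Over all 11388 expressed genes, 1.23% were at least 2-fold lower and 0.632% at least 2-fold higher. No member was at least 2-fold higher, and the count of 1 lower member reflects the choice of SAP30.

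**Figure D1:**
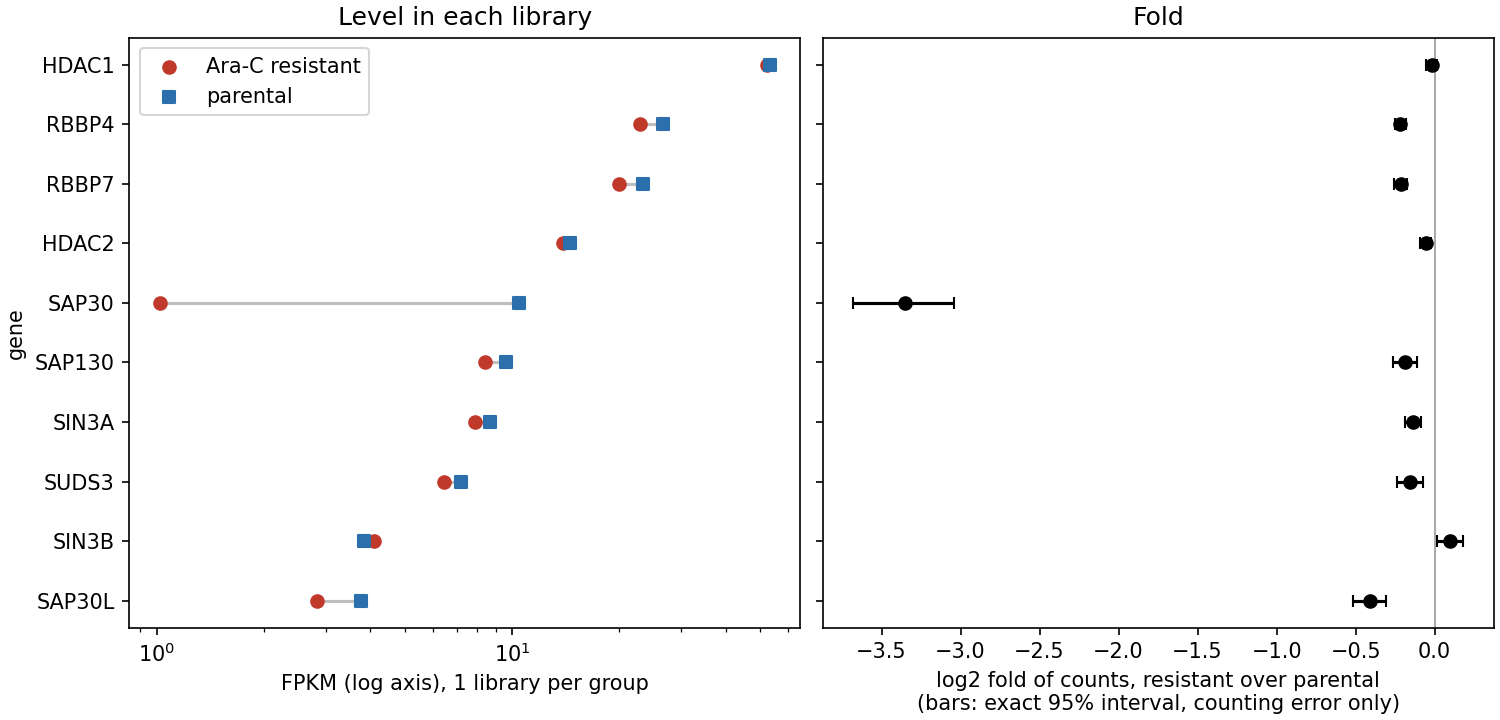
Levels of the 10 genes and their folds. The left panel gives FPKM in the resistant (circles) and parental (squares) library on a log axis, and the right panel the log2 fold of counts, resistant over parental, with exact 95% counting intervals as bars. SAP30 is at 1.02 FPKM in resistant cells and 10.5 FPKM in parental cells, while the other 9 genes lie between 0.752-fold and 1.07-fold.

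SAP30L, the paralogue that can take the place of SAP30 in the complex, was at 2.82 FPKM in resistant cells and 3.77 FPKM in parental cells. It was 0.752-fold in resistant cells (0.699 to 0.809), from 1290 and 1691 counts, and had the lowest log2 ratio after SAP30, at -0.32. Its level thus showed no gain beside the low SAP30. SAP30 was at 0.362 times the FPKM of SAP30L in resistant cells and at 2.78 times in parental cells. The summed level of the paralogues was 3.84 FPKM in resistant cells and 14.3 FPKM in parental cells, and SAP30 made up 26.6% of it in resistant and 73.6% in parental cells. By FPKM, the order of the paralogues was therefore turned round between the libraries. By counts, which are not scaled to length, SAP30L was above SAP30 in both. SAP30L had 1290 counts against 91 in resistant cells, and 1691 against 916 in parental cells. The parental order, and the shares, thus rest on the transcript lengths used for FPKM.

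The scaffolds were close to equal in both libraries. SIN3A was at 7.87 FPKM in resistant cells and 8.68 FPKM in parental cells, 0.909-fold (0.879 to 0.940), from 6656 and 7214 counts. SIN3B was at 4.09 FPKM in resistant cells and 3.83 FPKM in parental cells, 1.07-fold (1.01 to 1.13), from 2442 and 2249 counts. SIN3B was the only member with a log2 ratio above 0 (0.08). SIN3A made up 65.8% of the summed scaffold FPKM in resistant and 69.4% in parental cells.

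The deacetylases differed least. HDAC1, the member with the highest FPKM in both libraries, was at 52.4 FPKM in resistant cells and 53.3 FPKM in parental cells, with 14100 and 14082 counts. Its fold of 0.987 (0.964 to 1.01) was the only one whose counting interval held 1. HDAC2 was at 13.95 FPKM in resistant cells and 14.6 FPKM in parental cells, 0.961-fold (0.940 to 0.984), from 14513 and 14874 counts. HDAC1 was at 3.76 times the FPKM of HDAC2 in resistant and 3.66 times in parental cells, so the pair kept nearly the same proportion. By counts, HDAC2 was slightly above HDAC1 in both libraries, so the size of this ratio rests on the transcript lengths used for FPKM.

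The histone-binding subunits were slightly lower in resistant cells, by the same amount. RBBP4 was at 22.9 FPKM in resistant cells and 26.7 FPKM in parental cells, 0.861-fold (0.842 to 0.880), from 14708 and 16838 counts. RBBP7 was at 20.1 FPKM in resistant cells and 23.4 FPKM in parental cells, 0.861-fold (0.838 to 0.884), from 10000 and 11446 counts. Their ratio to each other was 1.14 in both libraries. Processed copies can share reads with their parent genes. RBBP4P1, a copy of RBBP4, had 238 counts in resistant cells and 241 in parental cells. SUDS3P1, a copy of the member SUDS3, had 137 and 143. These copies held few counts beside their parent genes.

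The remaining associated subunits were also slightly lower in resistant cells. SAP130 was at 8.43 FPKM in resistant cells and 9.63 FPKM in parental cells, 0.878-fold (0.831 to 0.927), from 2503 and 2810 counts. SUDS3, which joins the scaffold to the deacetylase, was at 6.45 FPKM in resistant cells and 7.20 FPKM in parental cells, 0.898-fold (0.849 to 0.949), from 2434 and 2672 counts.

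As a set, the 9 members other than SAP30 had log2 ratios from -0.32 to 0.08 with a median of -0.14, against a median of -0.02 over all 11388 expressed genes. With SAP30 the median of the members was -0.16. Of the 9, 8 had a log2 ratio below 0, as did 53.3% of all expressed genes, and the counting interval lay wholly below 1 for 7, as for 39.1% of all. None of the 9 was 1.5-fold apart, against 4.77% lower and 2.93% higher by that rule over all expressed genes. The SD of their log2 ratios was 0.12, and 0.76 with SAP30. Over all expressed genes, with no extreme gene taken out, it was 0.34. Genes with many counts have narrow intervals, and an interval that leaves out 1 says nothing of the spread between cultures. Ordered by FPKM, the members ran HDAC1, RBBP4, RBBP7 and HDAC2 at the top of both libraries. SAP30 stood at rank 10, the last, in resistant cells and at rank 5 in parental cells, while SAP130, SIN3A, SUDS3 and SIN3B followed each other in the same order in both.

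**Figure D2:**
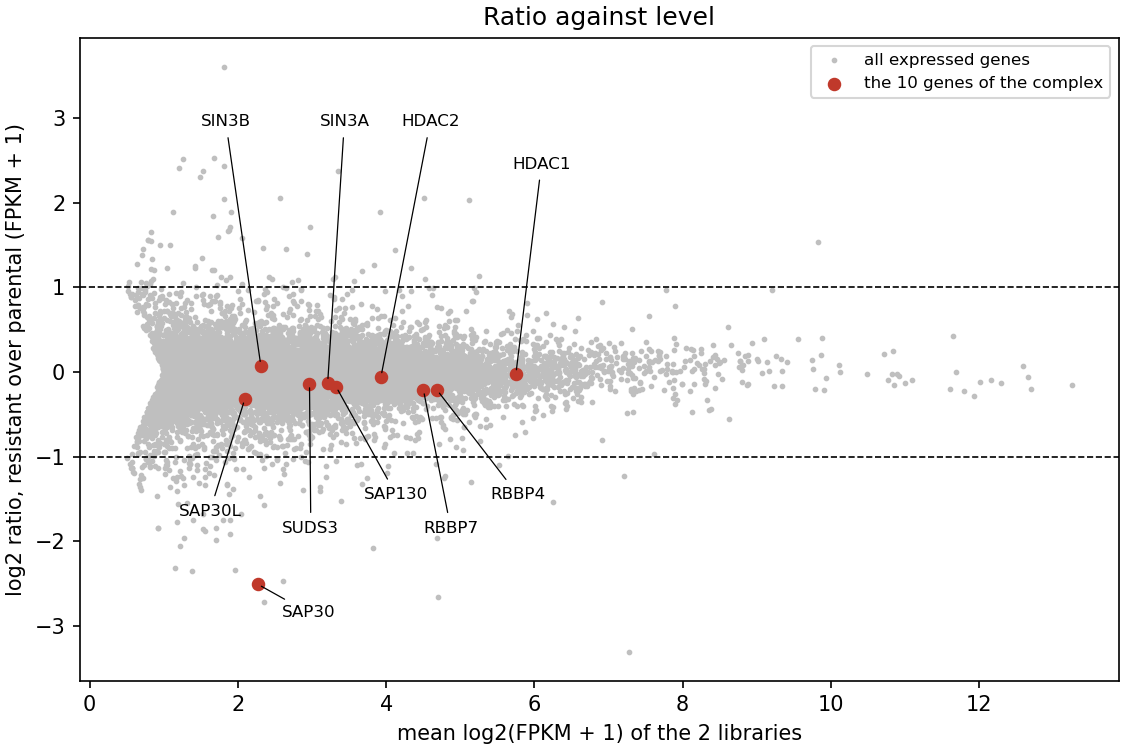
Log2 ratio (resistant over parental, FPKM + 1) against the mean log2(FPKM + 1) of the 2 libraries. Grey points are the 11388 expressed genes, labelled points the 10 members, and dashed lines the 2-fold rule. SAP30 lies at -2.51, and the other members lie between -0.32 and 0.08, inside the cloud of all genes.

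The noncoding RNA on the other strand of SAP30 was also lower in resistant cells. SAP30-DT had 8 counts in resistant and 49 counts in parental cells, 6.22-fold lower (2.92 to 15.2). Among 2021 rows with 40 to 100 counts in parental cells, 6.19% were at least 6-fold lower by counts. The rows of SAP30 and SAP30-DT overlap by 753 bases on opposite strands. The libraries were made with a strand-preserving protocol, per the labels, but the strand setting of the counting is not given in the sources used here, so reads of the pair may not be fully separated.

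All rows of the table around SAP30 were then listed, from GALNT7 to FBXO8, a choice made after the values were seen. The 8 rows from SAP30-DT to HAND2 span 181 kb, from 173349543 to 173530229. The ends of this stretch were also chosen after the values were seen, and it holds SAP30 itself. That all 8 rows had fewer counts in resistant than in parental cells therefore describes the choice. Of all rows with 2 to 1000 counts in parental cells, 58.7% had fewer in resistant cells. In the stretch, 6 rows had 0 counts in resistant cells. Most of these rows were barely detected, and the counting intervals of SCRG1, RPL5P11 and HAND2 held equal levels: SCRG1 had 0 counts in resistant cells and 2 in parental cells, RPL5P11 also 0 and 2, and HAND2, a transcription factor gene, 0 and 4. The best covered beyond SAP30 was a long noncoding RNA without a symbol (ENSG00000286039, 173509633 to 173511764), with 0 counts in resistant cells and 71 in parental cells. Of 1480 rows with 50 to 100 counts in parental cells, 1.35% had 0 in resistant cells. Other noncoding rows there had 0 counts in resistant cells and 15 in parental cells (ENSG00000288025), and 0 and 6 (ENSG00000261646). Zeros are common at such depths: 47.8% of 2781 rows with 2 to 5 counts in parental cells, and 29.1% of 3119 rows with 6 to 15, had 0 in resistant cells.

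Of the better covered genes on either side of this stretch, HMGB2 was slightly lower in resistant cells, and GALNT7 and FBXO8 were close to equal. HMGB2, a chromatin protein gene whose row ends 15111 bases before that of SAP30-DT begins, was at 144 FPKM in resistant cells and 169 FPKM in parental cells, 0.856-fold (0.841 to 0.871). GALNT7, a glycosyltransferase gene, was at 5.42 and 5.82 FPKM, and a noncoding row between them (ENSG00000248774) had 9 counts in resistant cells and 18 in parental cells. Beyond HAND2, the processed pseudogene MORF4 was higher in resistant cells, with 27 counts against 8 in parental cells, and FBXO8 had 393 counts in resistant cells and 380 in parental cells. On the side before SAP30, the 5 nearest expressed genes were CLCN3, HPF1, PTGES3P3, GALNT7 and HMGB2. On the side after it, the 5 nearest were FBXO8, CEP44, SPCS3, NEIL3 and AGA. These neighbours had log2 ratios from -0.32 to 0.35 with a median of -0.01. Their rows reach from 169612633 (CLCN3) to 177442437 (AGA), so they are not all close to SAP30. On the same chromosome the 144 expressed genes up to IGFBP7 had a median log2 ratio of -0.57. The 223 genes beyond it, where SAP30 lies, had a median of -0.002.

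**Figure D3:**
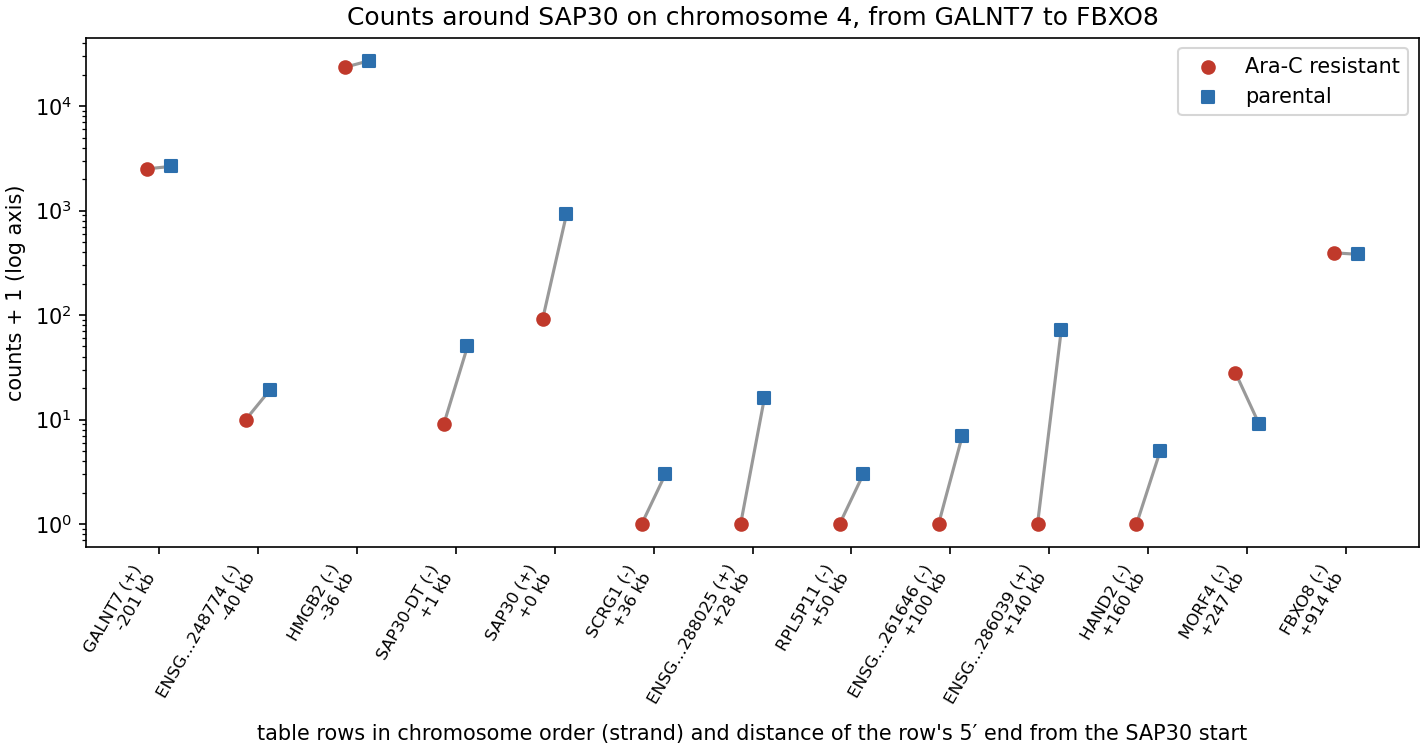
Counts + 1 on a log axis in the resistant (circles) and parental (squares) library for each table row from GALNT7 to FBXO8, in chromosome order. Labels give the strand and the distance of the row's 5′ end from the SAP30 start, and rows without a symbol carry the last digits of their Ensembl ID. The 8 rows from SAP30-DT to HAND2, a stretch chosen after the values were seen, all have fewer counts in resistant cells. For SCRG1, RPL5P11 and HAND2 the difference is within counting error. HMGB2 is slightly lower in resistant cells, and GALNT7 and FBXO8 are at similar counts in both.

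At the other members, antisense RNAs did not follow a common pattern. SAP30L-AS1 had 126 counts in resistant cells and 123 in parental cells, 1.01-fold (0.781 to 1.305). HDAC2-AS2, whose row overlaps that of HDAC2 by 41608 bases on the opposite strand, had 132 counts in resistant cells and 353 in parental cells, 2.71-fold lower (2.22 to 3.34). HDAC2 itself was 0.961-fold. For the 9 members other than SAP30, the median log2 ratio of the 10 nearest expressed genes lay between -0.19 (HDAC1) and 0.13 (HDAC2).

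The 12 further subunits and partners of the SIN3 complex were all expressed, and 0 were 1.5-fold apart. Over all expressed genes, 4.77% were at least 1.5-fold lower and 2.93% at least 1.5-fold higher, and 12 genes are too few to tell 0 from these shares. Their median log2 ratio was -0.10, with 8 below 0 and 3 above. ARID4B was at 5.75 FPKM in resistant cells and 6.97 in parental cells, ARID4A at 3.73 and 4.51, and the PHD finger protein gene PHF12 at 4.87 and 5.71; these had the largest absolute ratios of the list. SINHCAF, another associated subunit, was the highest relative to parental cells, at 22.9 and 20.6 FPKM. The chromatin reader MORF4L1 was at 32.4 FPKM in both. ING2 lies on the long arm of chromosome 4 like SAP30, at 183505058 to 183512429, and was at 2.66 FPKM in resistant cells and 3.09 FPKM in parental cells.

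Factors that bring SIN3 to DNA had a median of -0.09 over 18 expressed genes, and 0 were 1.5-fold apart on the FPKM + 1 scale. Over all expressed genes 4.77% were lower and 2.93% higher by that rule, and 18 genes are too few to tell 0 from these shares. MXD4, a MAX partner of the MAD family, was at 2.53 FPKM in resistant cells and 3.90 FPKM in parental cells, 0.650-fold (0.603 to 0.700). REST, a repressor of neuronal genes, was at 4.49 and 6.54 FPKM, 0.688-fold (0.656 to 0.722), and MAX at 7.88 and 9.77. MXD4 (2247432 to 2262109) and REST (56907876 to 56966738) lie in the part of chromosome 4 up to IGFBP7, whose genes were lower together.

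Related complexes were set beside SIN3. Over all 10 lists, 97 of 106 genes counted once were expressed, with a median log2 ratio of -0.07. On the FPKM + 1 scale, 0 were at least 2-fold apart, 3 were at least 1.5-fold lower and 0 at least 1.5-fold higher. Over all expressed genes, 1.23% were at least 2-fold lower and 0.632% at least 2-fold higher, while 4.77% were at least 1.5-fold lower and 2.93% at least 1.5-fold higher. The 3 lower genes were CTBP1, RCOR2 and MTA3. CTBP1, a corepressor that binds CoREST, was at 6.05 FPKM in resistant cells and 11.9 FPKM in parental cells, 0.511-fold (0.491 to 0.533), and it too lies in the low part of chromosome 4 (1211445 to 1249137). RCOR2 was at 1.76 and 3.17 FPKM, 0.556-fold (0.488 to 0.633). MTA3, a NuRD subunit, was at 0.74 and 1.65 FPKM, 0.453-fold by counts (0.408 to 0.502), with a log2 ratio of -0.61 on the FPKM + 1 scale.

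**Figure D4:**
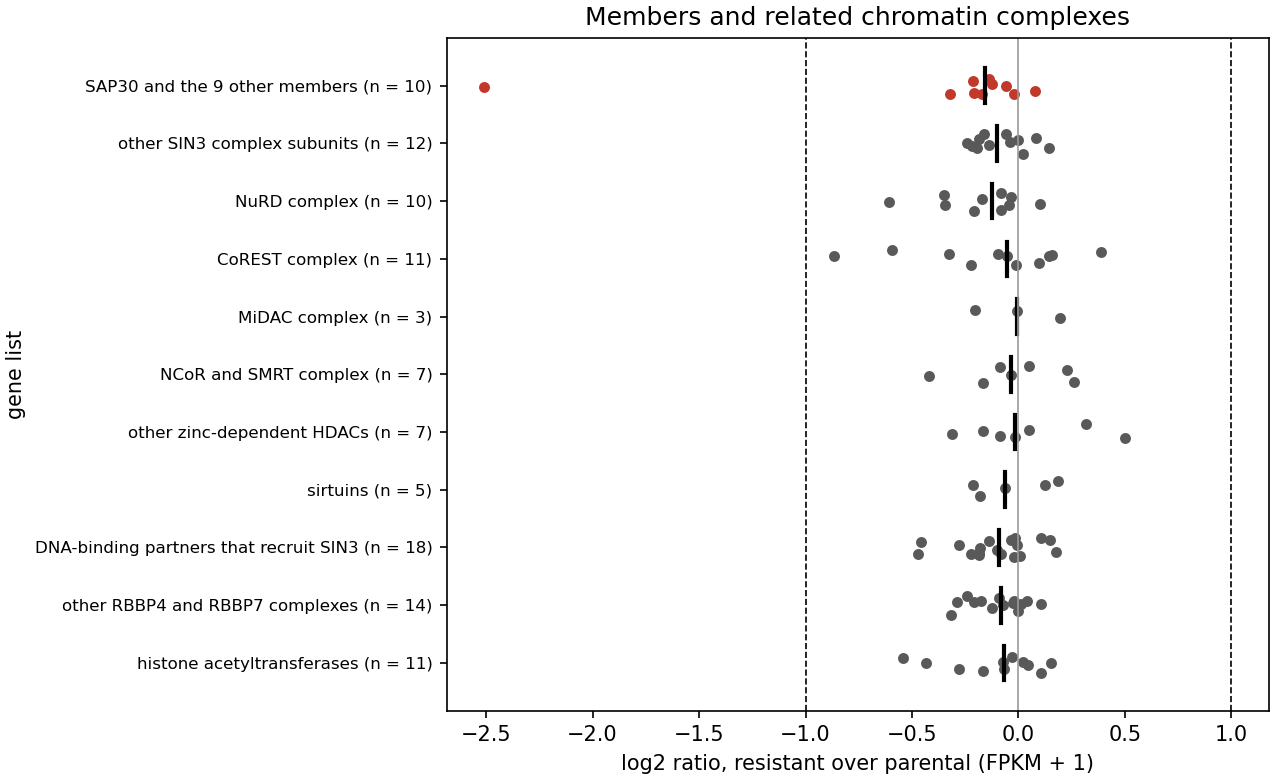
Log2 ratio (resistant over parental, FPKM + 1) of the 10 members and of the expressed genes of 10 related lists, 1 point a gene, with a bar at each median and dashed lines at the 2-fold rule. SAP30 at -2.51 is the only gene beyond the rule, and CTBP1 comes next at -0.87.

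NuRD, which shares HDAC1, HDAC2, RBBP4 and RBBP7 with SIN3, had a median of -0.13 over 10 expressed genes of its own, with MBD2 at 6.41 and 8.43 FPKM and CHD3 at 12.1 and 15.7. CoREST had a median of -0.05 over 11 genes, with GSE1 higher in resistant cells at 16.3 against 12.2 FPKM. The 3 expressed MiDAC genes had a median of -0.005, with DNTTIP1 at 18.2 and 21.1, MIDEAS at 3.22 and 2.69, and TRERF1 at 11.04 and 11.1 FPKM. The 7 NCoR and SMRT genes had a median of -0.03, with TBL1X at 1.21 and 1.96, GPS2 at 6.54 and 5.29, and CORO2A at 4.65 and 3.82. None of these complexes had a gene 2-fold apart on the FPKM + 1 scale, on which few of all expressed genes were (1.23% lower and 0.632% higher). By counts, MTA3 of NuRD was 2.21-fold lower in resistant cells (1.99 to 2.45).

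Other zinc-dependent deacetylases (7 expressed, median -0.02) included HDAC10 at 5.26 FPKM in resistant cells and 3.43 FPKM in parental cells, 1.53-fold (1.42 to 1.65), HDAC4 at 5.27 and 4.03, and HDAC7 at 1.36 and 1.93. The 5 expressed sirtuins had a median of -0.06, with SIRT2 at 5.60 and 6.64, SIRT7 at 7.96 and 6.88, and SIRT1 at 4.82 and 5.60. The acetyltransferases, which add the mark that SIN3 removes, had a median of -0.07 over 11 genes. Among them NCOA3 was at 2.36 FPKM in resistant cells and 3.90 FPKM in parental cells, CREBBP at 4.95 and 7.05, and EP300 at 9.64 and 11.9. Other complexes with RBBP4 or RBBP7 had a median of -0.08 over 14 genes, with CHAF1B at 8.20 and 10.45, LIN54 at 5.31 and 6.71, and EZH2 at 25.1 and 29.9 FPKM.

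The gene ontology terms in the deposited table were looked up after the values were seen. The term for the Sin3 complex held 12 expressed genes, 6 of them members and SAP30 not among them, with a median log2 ratio of -0.04. Of these 12, 0 were 1.5-fold apart, against 4.77% lower and 2.93% higher over all expressed genes. The broader term for histone deacetylase complexes held 31. SAP30, for which the set was chosen, was the only one at least 2-fold apart on the FPKM + 1 scale. Over all expressed genes, 1.23% were at least 2-fold lower and 0.632% at least 2-fold higher. By counts RERE, in the same term, was 0.491-fold (0.439 to 0.549), from 470 counts in resistant cells and 943 in parental cells. SAP18, which is in that term and in no list above, was at 31.0 FPKM in resistant cells and 29.7 FPKM in parental cells.

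The genes whose log2 ratio lay closest to that of SAP30, by absolute difference over the 2 libraries and among genes with at least 5 FPKM in the higher one, were DMRTA2 (-2.47), S100A8 (-2.65), C8orf44-SGK3 (-2.34), BHLHE22 (-2.71) and PRDX2 (-2.08). With 2 libraries such likeness is a single ratio. DMRTA2 and BHLHE22 had levels near those of SAP30 in both libraries, at 1.60 FPKM in resistant cells and 13.4 FPKM in parental cells, and at 0.99 and 12.1 FPKM.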

How the data were processed

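The authors deposited 1 table with coordinates, an FPKM value and a whole-number read count per gene and library; FPKM was normalised to transcript length and library size, and the deposited counts were not normalised. The submitters' processing notes name the GRCh38 build and list StringTie 1.3.4d, HISAT2 2.0.4, edgeR, DESeq2 and cutadapt 1.9 without saying what each did. The annotation release and strand setting are not given in the sources used here. The suffix of the resistant count column is not explained in the labels; its log2 ratios matched those of FPKM up to a constant (median difference -0.025, SD 0.0024, 10355 genes).

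Groups came from titles and treatment labels. Log2 ratios used FPKM with a pseudocount of 1. Genes were expressed with at least 1 FPKM in either library and a gene name that is not a clone identifier (22880 of 30856 rows had such a name). Folds compared counts per library total, with Clopper-Pearson intervals of the resistant share; without molecular identifiers, read pairs may not be independent. The members and lists were chosen with earlier results of these data known. Named genes were all members, the 3 largest absolute ratios of each list, 5 expressed neighbours on each side of SAP30 and the 5 closest ratios; other names were chosen after their values were seen. Of the gene IDs also in GENCODE 29, 59.2% had identical coordinates, so that annotation was used for SAP30 alone. RefSeq promoter windows were found by gene symbol for all 10 members, and some lie inside the gene's row and not at its start. The steps were run on simulated counts that held counting error only, which checks the code and not the spread between cultures. Alternatives covered the pseudocount, filter, scaling and size rule. Computation used scipy 1.17.1, pandas 2.3.3, numpy 2.4.6 and matplotlib 3.10.9 under Python 3.11.15.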

Additional observations from a re-analysis of the deposited data

How the results depend on the processing

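With 1 library per group, no value here has a replicate check, and no paired analysis was possible because each group has a single library. The fold of SAP30, 0.0979 by counts, moved with the pseudocount, to 0.176 with 1 FPKM (an alternative added after the values were seen), 0.389 with 5 FPKM and 0.151 with CPM and a pseudocount of 1. With 0.1 FPKM it was 0.106, and centred on the median of all expressed genes 0.0991, both inside its counting interval. The count of 1 member at least 2-fold lower and 0 higher was the same under all 7 alternatives. The lower member is SAP30, for which the set was chosen. Removing the minimum could not change this count, because all 10 members were expressed. Over all expressed genes the 140 lower and 72 higher became 366 and 226 with 0.1 FPKM, 16 and 14 with 5 FPKM, and 53 and 36 with a minimum of 5 FPKM. With CPM they became 263 and 112, and with a 1.5-fold rule 543 and 334. The median of the members lay between -0.17 and -0.11. Rows beside SAP30 with few counts are limited by depth.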
